A study of Mus musculus with 8 samples.

Results

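Gamma-glutamyl transferases and their cytosolic relative were followed in the jejunum of 2 inbred mouse strains; the jejunum is the stretch of small intestine between duodenum and ileum. The genes were Ggt1, Ggt5, Ggt6, Ggt7 and Ggct, taken by symbol, and each matched 1 row, so they are 5 of the 56941 rows of the count table. The tissue came from C3H/HeJ mice (C3H, 4 libraries, replicates 1, 3, 4 and 5) and from C57BL/6 mice (B6, 4 libraries, replicates 2, 3, 4 and 5). Mice of both strains were naive and aged 6 to 8 weeks, and the strains shared cages for at least 8 weeks, per the labels, which leave unsaid at which point the age was taken. No agent, transgene or allergen challenge is given for either strain. C3H/HeJ mice carry a loss-of-function allele of the lipopolysaccharide receptor gene Tlr4, as general background. The series title concerns food anaphylaxis and allergen absorption that depends on cysteinyl leukotrienes, and the strain comparison addresses the intestine before any challenge.

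Cysteinyl leukotrienes are lipid mediators that start as a conjugate of leukotriene A4 with glutathione, called leukotriene C4. A gamma-glutamyl transferase at the cell surface removes the glutamyl residue to give leukotriene D4, and a dipeptidase then removes glycine to give leukotriene E4. The same surface enzymes open glutathione itself, so that its amino acids can be taken up again. Ggt1 encodes the main transferase of this kind, held in the brush border of absorptive cells. Ggt5 encodes the enzyme known in mice as gamma-glutamyl leukotrienase, which also makes leukotriene D4 from leukotriene C4. Ggt6 and Ggt7 are relatives by sequence. Ggct encodes the cytosolic gamma-glutamylcyclotransferase, which releases 5-oxoproline from gamma-glutamyl amino acids and belongs to another protein family.

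Ggt1 and Ggt5 are next to each other on chromosome 10, on the same strand, in the GENCODE M21 annotation of GRCm38. Ggt6 lies on chromosome 11, Ggt7 on chromosome 2 and Ggct on chromosome 6. Because the deposited counts were made on another build, GRCm39, no coordinates are given. The coding sequence of Ggt1 is 1704 bases long, that of Ggt5 1719, of Ggt6 1491, of Ggt7 1986 and of Ggct 564. Over 1662 aligned coding bases Ggt1 and Ggt5 were 51.9% identical, and the longest stretch they shared was 17 bases. Identity was 43.7% between Ggt1 and Ggt6, 45.6% between Ggt1 and Ggt7, and 38.9% to 45.2% among the other pairs of transferases. The 60 coding bases in which Ggt1 and Ggt5 are most alike are shown with the aligned stretches of Ggt6 and Ggt7. Only stretches that start at a codon and align to Ggt1 without gaps in the other 3 genes were searched. The lines show how far reads of neighbouring relatives can be told apart there. In the Ggt1 line capitals mark the 13 bases shared by all 4 genes, and in the other lines capitals mark bases that are the same as in Ggt1.
Ggt1: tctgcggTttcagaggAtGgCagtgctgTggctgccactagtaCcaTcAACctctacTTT
Ggt5: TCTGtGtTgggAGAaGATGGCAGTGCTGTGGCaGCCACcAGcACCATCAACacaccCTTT
Ggt6: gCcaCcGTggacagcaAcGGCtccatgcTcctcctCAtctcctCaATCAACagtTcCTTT
Ggt7: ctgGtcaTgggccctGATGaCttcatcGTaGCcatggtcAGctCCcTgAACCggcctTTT

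The stretch covers coding bases 1150 to 1209 of Ggt1, 1177 to 1236 of Ggt5, 1084 to 1143 of Ggt6 and 1429 to 1488 of Ggt7, counted from the start codon. Ggt5 had 46 of the 60 bases in common with Ggt1 (76.7%), and Ggt6 and Ggt7 each had 23 (38.3%). None of the 50-base words in the transcripts of Ggt1, Ggt5 or Ggt6 occurred in a transcript of another gene. Of the 3214 such words of Ggt7, 149 (4.64%) also occurred in transcripts of Acss2, which overlaps the start of Ggt7 on the opposite strand. The strand setting of the counting is not given in the sources used here, so reads of that overlap cannot be assigned. Ggct shared 0.18% of its words with other genes.

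The libraries held 37205896 to 58251332 counts each, and 18025 genes had enough counts to be tested. A gene was called changed when its Benjamini-Hochberg adjusted p from edgeR's quasi-likelihood test was under 0.05; 3857 genes (21.4%) were, with 2040 (11.3%) higher in C3H and 1817 (10.1%) lower. The median log2 fold change over all tested genes was 0.03. Sis, the sucrase-isomaltase of jejunal enterocytes, averaged 7033 ± 1305 CPM (counts per 1000000 counts of the scaled library) in C3H and 7487 ± 1398 in B6 (SD, n = 4 each). Of 4 distal genes listed, Fabp6, a marker of the ileum, had 20 counts over C3H and 2 over B6. Slc51b was 2.11-fold lower in C3H (adjusted p = 0.000495, edgeR). Slc10a2 and Cubn did not pass, and Cubn averaged 856 ± 344 CPM in C3H and 777 ± 325 in B6. Of 5 proximal genes 2 rose, Cybrd1 (4.65-fold, adjusted p = 0.00253, edgeR) and Slc40a1 (3.42-fold, adjusted p = 0.0036, edgeR), and 3 did not pass. A difference in position along the gut was not tested. C3H 3 and C3H 5 stood apart by their pancreatic transcripts: the summed level of 9 acinar genes was 2744 CPM in C3H 3 and 1240 in C3H 5, against 31.3 to 254 CPM in the other 6 libraries. For the members, the glutathione and leukotriene genes, the neighbours and Arap3, calls that were lost without these libraries are marked beside the result. Among cell type markers this was followed for Slc15a1, Kdr, Tek, Csf1r and C1qa. The calls of the other cell type markers were not followed in that fit. Since the labels do not tie each library to its own mouse, the p-values speak for the spread between these libraries, which may be technical. In bulk tissue, fewer cells of a type and less RNA per cell cannot be told apart.

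All 5 genes passed the filter on low counts and 1 of them, Ggt5, changed, against 21.4% of all tested genes. It was the one member of the 5 with an unadjusted p under 0.05 (edgeR quasi-likelihood test). Ggt5 rose 1.40-fold in C3H, while Ggt1, its neighbour and by far the more abundant transferase, averaged lower in C3H but did not pass the test. Ggt6, Ggt7 and Ggct did not pass the test either.

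**Figure D1:**
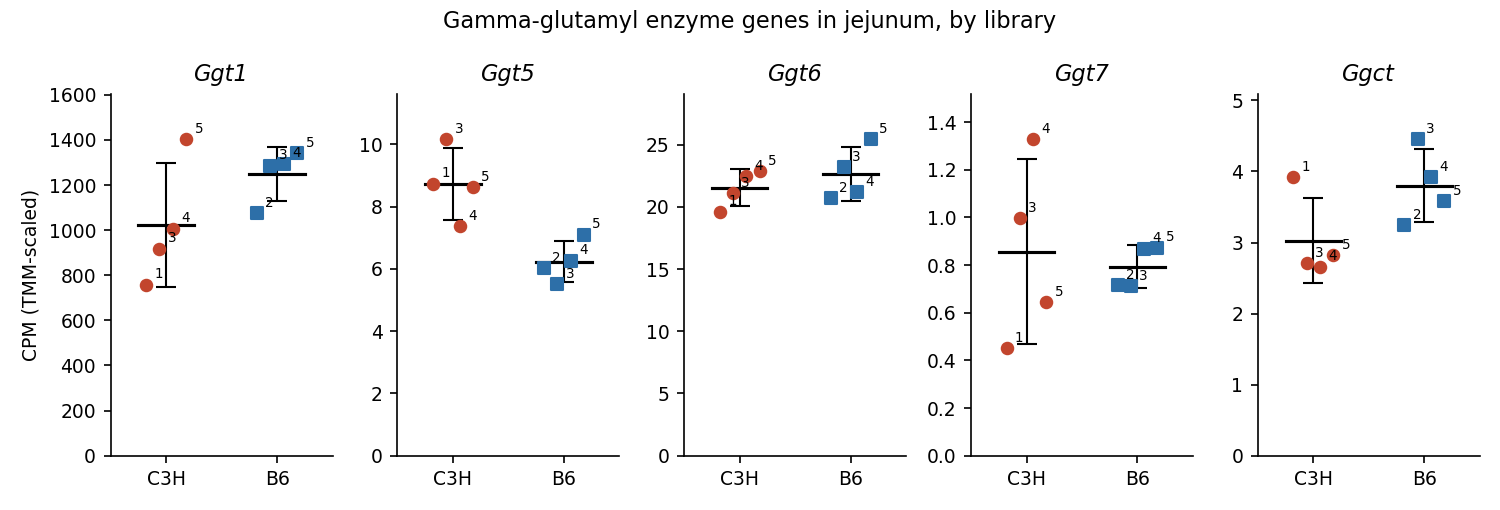
Level of each gene in CPM (TMM-scaled), with C3H left of B6; each point is 1 library with its replicate number, and lines show the mean and SD (n = 4 each). The 4 C3H values of Ggt5 lie above the 4 B6 values, and in the other genes the strains overlap.

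The 5 transcripts covered a wide span of abundance. Per kilobase of annotated exon, Ggt1 averaged 299.6 ± 80.7 CPM per kilobase in C3H and 366 ± 34.8 in B6 (SD, n = 4 each). Ggt6 followed with 11.9 ± 0.818 CPM per kilobase in C3H and 12.5 ± 1.20 in B6, and Ggt5 with 1.47 ± 0.194 in C3H and 1.05 ± 0.111 in B6. Ggct had 0.391 ± 0.0777 CPM per kilobase in C3H and 0.491 ± 0.0670 in B6. Ggt7 was lowest, with 0.262 ± 0.119 in C3H and 0.243 ± 0.0278 in B6. Each of the first 3 genes in this order lay above the next in all 8 libraries, with no overlap of values between neighbours. Ggct lay above Ggt7 in 7 of 8 libraries and their ranges overlapped. With the longest transcript as the length in place of all exons, the order was the same and Ggct lay above Ggt7 in 8 of 8 libraries; Ggct has 7745 bases of annotated exon and a longest transcript of 3960, so its level depends most on that choice.

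**Figure D2:**
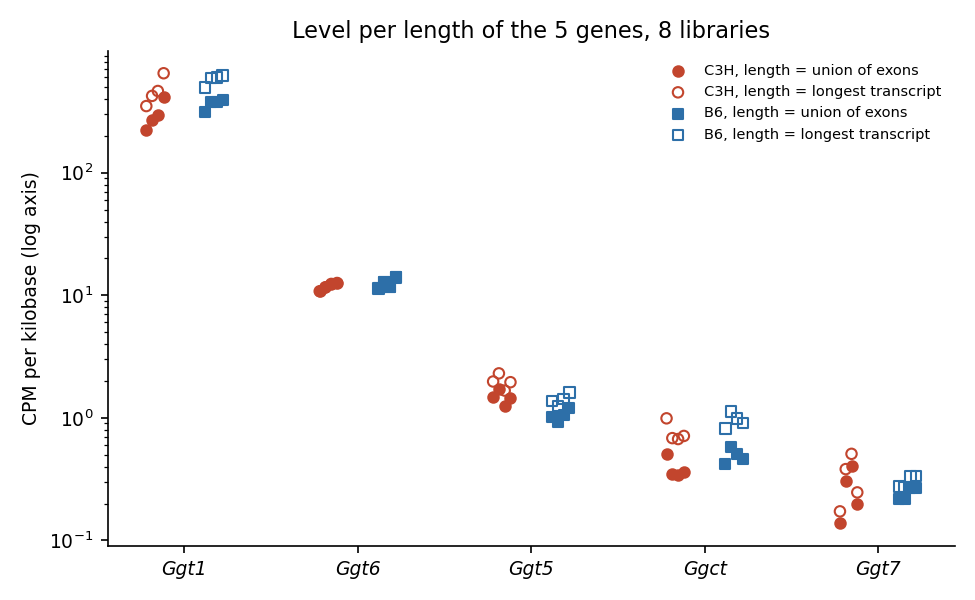
Level of each gene in CPM per kilobase on a log axis, C3H left of B6 within each gene; each point is 1 library, filled with all annotated exons as the length and open with the longest transcript. The order Ggt1, Ggt6, Ggt5, Ggct, Ggt7 holds for both lengths, and the filled points of Ggct and Ggt7 overlap.

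Ggt1 made up nearly all transferase message on this scale. Its share of the summed level of the 4 transferases per kilobase was 94.7% to 96.7% in C3H and 96.1% to 96.7% in B6. Ggt6 held 2.96% to 4.60% in C3H and 2.97% to 3.48% in B6. The share of Ggt5 was 0.342% to 0.628% in C3H and 0.238% to 0.311% in B6, so its C3H shares lay above its B6 shares. Ggt1 ranked between 89 and 127 by CPM among the 18025 tested genes, depending on the library, while Ggt5 ranked between 8395 and 10043.

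For Ggt1 (ENSMUSG00000006345) the level was 758 CPM in C3H 1, 918 in C3H 3, 1007 in C3H 4 and 1405 in C3H 5, against 1075 in B6 2, 1286 in B6 3, 1295 in B6 4 and 1342 in B6 5. C3H 1, C3H 3 and C3H 4 lay below every B6 library, whereas C3H 5 lay above all of them. Mean levels were 1022 ± 275 CPM in C3H and 1249.5 ± 119 in B6 (SD, n = 4 each). The fitted log2 fold change was -0.29 (standard error 0.18, 95% interval -0.68 to 0.10, adjusted p = 0.287, edgeR quasi-likelihood test). Ggt1 thus did not pass, and the interval covered both directions. The interval spans levels from 0.626 to 1.07 times that of B6. This result turns on C3H 5: without it Ggt1 was lower in C3H with a log2 fold change of -0.48 (adjusted p = 0.0279). Without both pancreas-rich libraries, C3H 3 and C3H 5, it was -0.50 (adjusted p = 0.099).

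Counting noise was a small part of the spread of Ggt1 between libraries. Ggt1 had 38639 to 52312 counts per C3H library and 40483 to 72237 per B6 library, for which counting alone gives a coefficient of variation of 0.474% in C3H and 0.412% in B6. The coefficient measured was 26.9% in C3H and 9.5% in B6. Other enterocyte genes varied with it: the summed CPM of 7 brush border and absorptive genes (Vil1, Alpi, Sis, Mme, Slc15a1, Fabp2 and Apoa4) was 37326 in C3H 1, 42620 in C3H 3, 53222 in C3H 4 and 61792 in C3H 5, the same order as for Ggt1. In B6 the sum was 42218, 46803, 53626 and 44879 CPM in replicates 2, 3, 4 and 5, and its order was not that of Ggt1. Of these 7 genes 0 rose in edgeR (0 also at an unadjusted p under 0.05, in DESeq2 and in limma-voom) and 1 fell, the peptide transporter gene Slc15a1, with a median log2 fold change of -0.09 for the list. The Slc15a1 call (log2 fold change -0.43, adjusted p = 0.0429, edgeR) was lost without C3H 1 (adjusted p = 0.0565), C3H 3 (0.115), B6 3 (0.0957), B6 4 (0.0994) or B6 5 (0.0715), and without C3H 3 and C3H 5 together (log2 fold change -0.50, adjusted p = 0.111). The part of enterocyte content in the Ggt1 values was not tested.

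Ggt1 was also set against the sum of these 7 genes. It had 20.3, 21.5, 18.9 and 22.7 CPM per 1000 CPM of the enterocyte sum in C3H 1, 3, 4 and 5, against 25.5, 27.5, 24.1 and 29.9 in B6 2, 3, 4 and 5. All 4 C3H libraries lay below all 4 B6 libraries on this ratio. On the log2 scale, with each of the 7 genes weighted equally, Ggt1 minus their mean was -2.07, -2.06, -2.20 and -1.90 in C3H, against -1.94, -1.72, -1.89 and -1.58 in B6, and C3H 5 fell within the B6 range. The ratios were chosen after the values were seen, and they are given without a test.

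For Ggt5 (ENSMUSG00000006344) the level was 8.73 CPM in C3H 1, 10.2 in C3H 3, 7.37 in C3H 4 and 8.62 in C3H 5, against 6.03 in B6 2, 5.51 in B6 3, 6.27 in B6 4 and 7.10 in B6 5. Every C3H library lay above every B6 library; 12.7% of all tested genes had their C3H values wholly above those of B6. The gap was narrow, with 7.37 CPM in the lowest C3H library and 7.10 CPM in the highest B6 library. Mean levels were 8.72 ± 1.15 CPM in C3H and 6.23 ± 0.660 in B6 (SD, n = 4 each). Ggt5 rose 1.40-fold in C3H (95% interval 1.16 to 1.69; log2 fold change 0.49, standard error 0.12, adjusted p = 0.0157, edgeR quasi-likelihood test). These values rest on 288 to 530 counts per C3H library and 225 to 382 per B6 library. The call was lost without C3H 3 (log2 fold change 0.39, adjusted p = 0.0632) and without B6 3 (0.43, adjusted p = 0.0501), and it held in the other 6 fits that left out 1 library. Without C3H 3 and C3H 5 the log2 fold change was 0.37 (adjusted p = 0.157); without B6 2 and B6 3 as well it was 0.26 (adjusted p = 0.512).

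**Figure D3:**
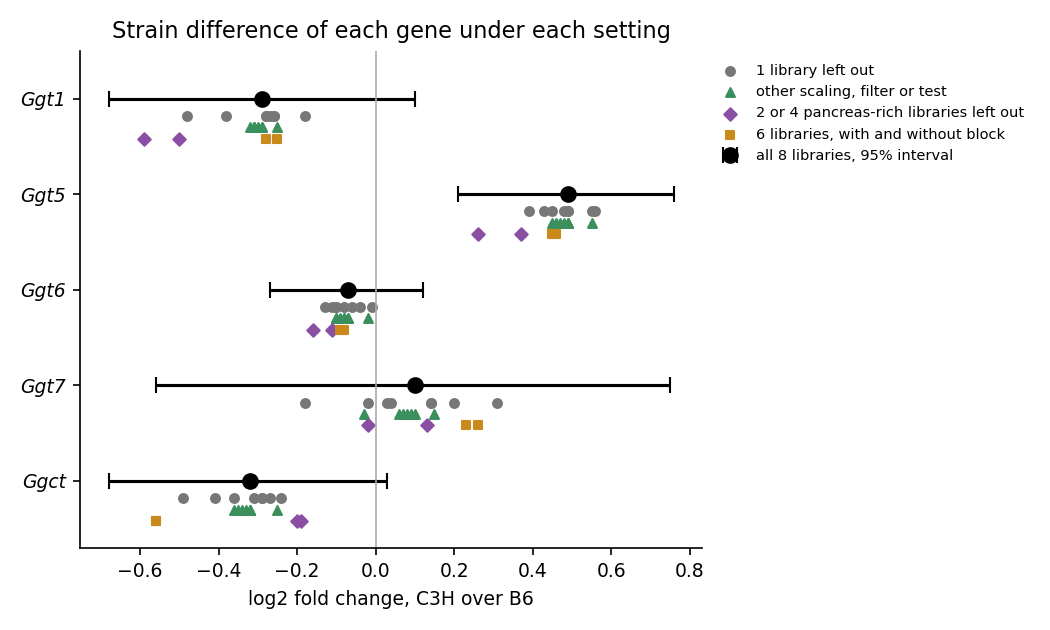
Log2 fold change of each gene, C3H over B6; black points and bars are the fit on 8 libraries with its 95% interval, which is not adjusted for the number of genes, and the smaller symbols are the other settings. Symbols of Ggt5 stay right of 0 and those of Ggt1, Ggt6 and Ggct left of 0, while those of Ggt7 fall on both sides.

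Markers of several cell types moved beside Ggt5, where 11.3% of all tested genes rose and 10.1% fell. Endothelial genes summed to 121 to 153 CPM in C3H and 101 to 115 CPM in B6, without overlap, and 2 of 6 rose, Kdr and Tek, which encode receptors for vascular growth factors. The 5 tested mast cell genes of 6 all rose, and the list summed to 12.6 to 32.7 CPM in C3H and 1.35 to 3.11 CPM in B6. Macrophage and dendritic cell genes summed to 237 to 263 CPM in C3H and 189 to 242 CPM in B6, and 2 of 7 rose, Csf1r and C1qa, the second of which missed the threshold without C3H 4 (adjusted p = 0.0524, edgeR) or B6 2 (0.0545), and without C3H 3 and C3H 5 together (log2 fold change 0.52, adjusted p = 0.0509). Fibroblast genes overlapped, with 350 to 518 CPM in C3H and 321 to 495 CPM in B6, and 0 of 6 changed in edgeR (0 also at an unadjusted p under 0.05, in DESeq2 and in limma-voom). Other lists moved too: 4 of 6 enteroendocrine genes rose (430 to 630 CPM summed in C3H and 231 to 332 in B6), 4 of 5 T cell genes fell and 1 rose (53.0 to 74.4 CPM in C3H and 87.3 to 110 in B6), and all 5 tested tuft cell genes fell. B and plasma cell genes summed to 751 to 1010 CPM in C3H and 1135 to 1379 CPM in B6, without overlap. Of those 5 genes 1 fell, Jchain (adjusted p = 0.0233, edgeR), with 858 ± 129 CPM in C3H and 1194 ± 118 in B6. All genes of these lists had counts in both strains. Their part in the Ggt5 difference was not tested.

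The neighbouring pair was also compared as a ratio. Per kilobase, Ggt1 exceeded Ggt5 by a ratio of 151, 157, 237 and 283 in C3H 1, 3, 4 and 5, against 310, 405, 359 and 328 in B6 2, 3, 4 and 5. Mean ratios were 207 ± 64.1 in C3H and 350 ± 41.6 in B6 (SD, n = 4 each), without overlap. The next enzyme of the chain, the membrane dipeptidase gene Dpep1, gave a similar picture. Ggt1 over Dpep1 per kilobase was 1.38, 1.54, 1.45 and 1.72 in C3H 1, 3, 4 and 5, against 2.01, 2.05, 2.25 and 2.24 in B6 2, 3, 4 and 5. Mean ratios were 1.52 ± 0.147 in C3H and 2.14 ± 0.125 in B6 (SD, n = 4 each), again without overlap. Dpep1 itself averaged 484 ± 85.1 CPM in C3H and 426 ± 28.1 in B6 and did not pass the test (log2 fold change 0.18, adjusted p = 0.35, edgeR quasi-likelihood test). Within C3H, Dpep1 had the same order of libraries as Ggt1, lowest in C3H 1 with 402 CPM and highest in C3H 5 with 594. These ratios were formed with the values known and carry no test.

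**Figure D4:**
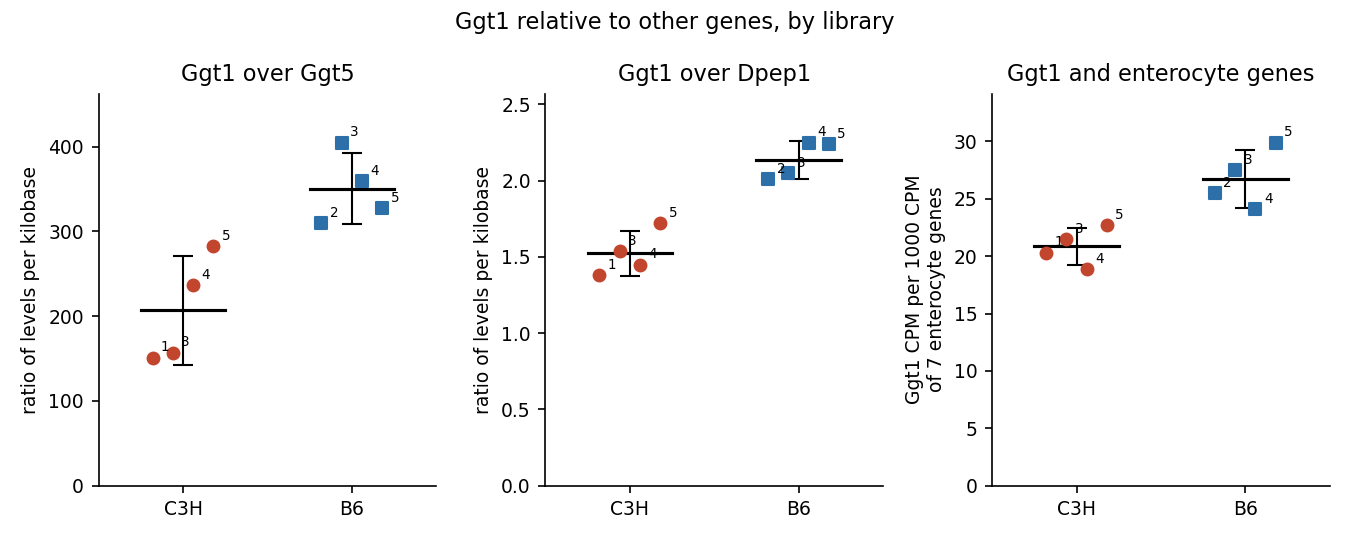
Ggt1 over Ggt5 and Ggt1 over Dpep1 as ratios of levels per kilobase, and Ggt1 CPM per 1000 CPM of 7 enterocyte genes, with C3H left of B6; points are libraries with their replicate number, and lines are means with SD (n = 4 each). The C3H points lie below the B6 points in all 3 panels. The ratios were chosen after the values were seen. With the 7 enterocyte genes weighted equally on the log2 scale, which is not drawn, C3H 5 fell within the B6 range.

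Ggt6 (ENSMUSG00000040471), the second most abundant transferase message, varied little, with a coefficient of variation of 6.9% in C3H and 9.6% in B6. It had 19.6, 21.1, 22.5 and 22.9 CPM in C3H 1, 3, 4 and 5, against 20.7, 23.2, 21.2 and 25.5 CPM in B6 2, 3, 4 and 5. The libraries of the strains were interleaved, and the means were 21.5 ± 1.49 CPM in C3H and 22.7 ± 2.18 in B6 (SD, n = 4 each). The fitted log2 change was -0.07 (standard error 0.09, adjusted p = 0.618, edgeR quasi-likelihood test). The 95% interval of the ratio, 0.832 to 1.09, is the narrowest among the 5 genes.

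Ggt7 (ENSMUSG00000027603) had the fewest counts of the 5 genes. Its counts were 23, 52, 52 and 24 in C3H 1, 3, 4 and 5, against 27, 29, 47 and 47 in B6 2, 3, 4 and 5. In CPM these were 0.451, 0.998, 1.33 and 0.645 in C3H, against 0.717, 0.711, 0.869 and 0.873 in B6. C3H 3 and C3H 4 lay above the B6 range, and C3H 1 and C3H 5 lay below it. The coefficient of variation was 45.4% in C3H and 11.4% in B6, where counting alone gives 16.3% in each. The fit gave a log2 fold change of 0.10 (standard error 0.30, 95% interval -0.56 to 0.75, adjusted p = 0.867, edgeR quasi-likelihood test); it was -0.02 without C3H 3 and -0.18 without C3H 4. The interval of the ratio runs from 0.677 to 1.69, a width that goes with the spread between the C3H libraries as well as with the low counts, and smaller differences were not detectable here.

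Ggct (ENSMUSG00000002797) was lower in most C3H libraries but did not pass the test. It had 3.93 CPM in C3H 1, 2.71 in C3H 3, 2.66 in C3H 4 and 2.82 in C3H 5, against 3.24 in B6 2, 4.46 in B6 3, 3.92 in B6 4 and 3.59 in B6 5. C3H 3, C3H 4 and C3H 5 lay below every B6 library and C3H 1 lay within the B6 range. Means were 3.03 ± 0.602 CPM in C3H and 3.80 ± 0.519 in B6 (SD, n = 4 each), from 104 to 200 counts per C3H library and 122 to 212 per B6 library. The log2 fold change was -0.32 (standard error 0.16, 95% interval -0.68 to 0.03, adjusted p = 0.184, edgeR quasi-likelihood test). Without C3H 1 it was -0.49 and passed (adjusted p = 0.0368), and without C3H 3 and C3H 5 it was -0.20 (adjusted p = 0.583).

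Glutathione is a substrate of the surface transferases, and 1 of the 4 genes of its synthesis rose, against 11.3% of all tested genes. Gclc encodes the catalytic subunit of glutamate-cysteine ligase, the rate-limiting step. It had 119, 119, 127 and 147 CPM in C3H 1, 3, 4 and 5, against 36.2, 40.5, 58.0 and 43.5 CPM in B6 2, 3, 4 and 5. The strains were far apart: Gclc rose 2.87-fold in C3H (95% interval 2.31 to 3.56; log2 fold change 1.52, standard error 0.14, adjusted p = 1.85e-05, edgeR quasi-likelihood test), and it passed in all 8 fits that left out 1 library. The other genes of synthesis overlapped between strains. Gclm, the regulatory subunit of the same ligase, averaged 148 ± 20.5 CPM in C3H and 137 ± 23.9 in B6 (adjusted p = 0.605, edgeR). Gss, which adds glycine, averaged 102 ± 17.0 CPM in C3H and 94.4 ± 13.4 in B6 (adjusted p = 0.6, edgeR), and the cystine importer gene Slc7a11 had a log2 fold change of 0.15 (adjusted p = 0.587, edgeR). The median log2 fold change of the 4 genes was 0.13, against 0.03 over all tested genes.

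Genes that break down glutathione and gamma-glutamyl peptides numbered 10, of which 8 were tested. Among them 0 rose in edgeR (1, Oplah, at an unadjusted p under 0.05, and 0 in DESeq2 and limma-voom) and 2 fell, against 10.1% of all tested genes that fell, and the median log2 fold change was -0.02. Chac1 encodes a cytosolic cyclotransferase that acts on glutathione, with the same kind of reaction as the Ggct enzyme. Its level was 0.412, 0.384, 0.409 and 0.349 CPM in C3H 1, 3, 4 and 5, against 1.09, 0.809, 0.776 and 1.02 CPM in B6 2, 3, 4 and 5. Chac1 fell to 0.389 ± 0.0292 CPM in C3H, against 0.924 ± 0.155 in B6 (SD, n = 4 each), which is 2.36-fold lower (adjusted p = 0.00099, edgeR quasi-likelihood test). The strains did not overlap, as was the case with C3H lower for 11.7% of all tested genes, although the counts were low, with 70 over the C3H libraries and 171 over the B6 libraries. Lap3, a leucine aminopeptidase that also cleaves cysteinylglycine, had 397, 427, 510 and 463 CPM in C3H 1, 3, 4 and 5, against 586, 783, 599 and 635 CPM in B6 2, 3, 4 and 5. It was 1.45-fold lower in C3H (log2 fold change -0.54, standard error 0.12, adjusted p = 0.0086, edgeR quasi-likelihood test), and without C3H 3 and C3H 5 the log2 fold change was -0.52 but missed the threshold (adjusted p = 0.0815).

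Among the breakdown genes that did not pass, Anpep and Cndp2 were the most abundant. Anpep encodes the brush border aminopeptidase N. It had 7350, 7759, 8770 and 8912 CPM in C3H 1, 3, 4 and 5, against 9814, 11811, 9764 and 10720 CPM in B6 2, 3, 4 and 5. The strains did not overlap, yet the log2 fold change of -0.36 (standard error 0.18) missed the threshold (adjusted p = 0.182, edgeR quasi-likelihood test); it passed with library totals as the scaling (-0.31, adjusted p = 0.0454) and in DESeq2 (-0.38, adjusted p = 0.00238). Cndp2, a cytosolic dipeptidase, averaged 823 ± 120 CPM in C3H and 904 ± 115 in B6 (adjusted p = 0.542, edgeR). Oplah, which hydrolyses the 5-oxoproline that cyclotransferases release, averaged 25.3 ± 5.69 CPM in C3H and 19.3 ± 1.40 in B6 (log2 fold change 0.39, adjusted p = 0.0717, edgeR). Its highest value, 33.1 CPM, was in C3H 5. Oplah passed in edgeR without C3H 1 (0.48, adjusted p = 0.0176) and with library totals as the scaling (0.43, adjusted p = 0.0185). It also passed over the 6 libraries whose replicate numbers occur in both strains (0.44, adjusted p = 0.0444, edgeR), but not with a replicate block (0.43, adjusted p = 0.059). Chac2 and Ggact, which act on glutathione and on gamma-glutamyl amines, had log2 fold changes of 0.24 (adjusted p = 0.302, edgeR) and 0.09 (adjusted p = 0.474, edgeR). The dipeptidase genes Dpep2, with 14 counts over C3H and 10 over B6, and Dpep3, with 8 over C3H and 6 over B6, were too low to test.

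**Figure D5:**
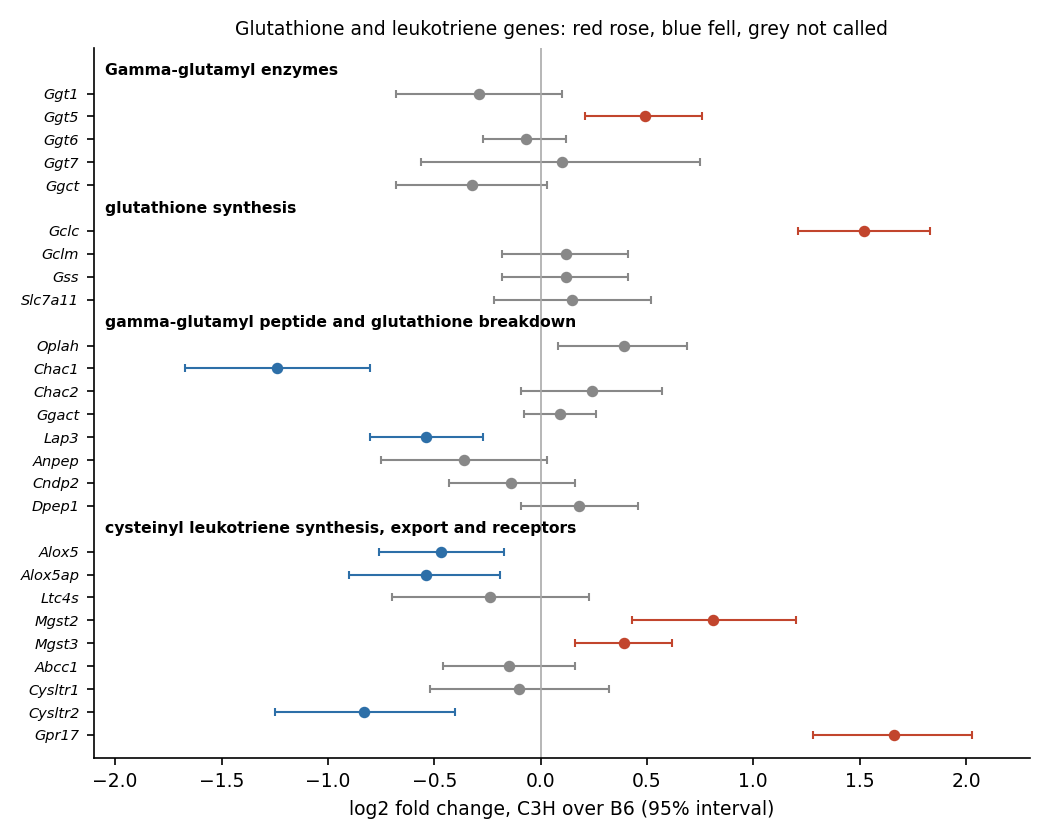
Log2 fold change, C3H over B6, of the 5 gamma-glutamyl enzyme genes and of the tested genes in 3 lists, with 95% intervals not adjusted for the number of genes; red marks genes that rose, blue genes that fell and grey genes that did not pass an adjusted p of 0.05. Gclc and Gpr17 lie farthest right and Chac1 farthest left, while 4 of the 5 gamma-glutamyl enzyme genes are grey.

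Upstream and downstream of the trimming step, 3 of the 9 tested leukotriene genes rose and 3 fell, with a median log2 fold change of -0.15, where 11.3% of all tested genes rose and 10.1% fell. The pair that makes leukotriene A4 fell: Alox5, the 5-lipoxygenase gene, averaged 3.19 ± 0.503 CPM in C3H and 4.42 ± 0.394 in B6, and Alox5ap, its activating protein, averaged 3.21 ± 0.490 CPM in C3H and 4.67 ± 0.868 in B6 (SD, n = 4 each; adjusted p = 0.0312 and 0.0331, edgeR). Tuft cell genes moved beside them: all 5 tested genes of the 6 on that list fell, with a median log2 fold change of -1.29, and the list summed to 19.5 to 21.8 CPM in C3H and 41.3 to 53.7 CPM in B6, without overlap. Mast cell genes went the other way: all 5 tested genes rose, with a median log2 fold change of 3.23. Of 7 macrophage and dendritic cell genes 2 rose and 0 fell. The part of these cell types in the leukotriene genes was not tested. Neither the Alox5 nor the Alox5ap call was stable. Alox5 missed the threshold without C3H 3 (adjusted p = 0.0553, edgeR), C3H 4 (0.0826), C3H 5 (0.0724), B6 3 (0.0707) or B6 5 (0.0844). Alox5ap missed it without C3H 1 (adjusted p = 0.0783), C3H 4 (0.0882), B6 4 (0.0653) or B6 5 (0.092), and both missed it with library totals as the scaling (0.178 for Alox5 and 0.0884 for Alox5ap). Of the enzymes that can join glutathione to leukotriene A4, Mgst2 averaged 194 ± 34.2 CPM in C3H and 110 ± 27.7 in B6, a 1.76-fold rise (adjusted p = 0.00596, edgeR). Ltc4s, the dedicated synthase gene, averaged 6.41 ± 0.404 CPM in C3H and 7.52 ± 2.72 in B6 (adjusted p = 0.487, edgeR). Mgst3, a microsomal glutathione transferase gene, averaged 374 ± 43.9 CPM in C3H and 286 ± 22.4 in B6 and rose 1.31-fold (adjusted p = 0.0193, edgeR), but missed the threshold without B6 2 (0.0669), B6 3 (0.065) or B6 4 (0.0511). Without C3H 3 and C3H 5, Alox5 (log2 fold change -0.39, adjusted p = 0.195, edgeR) and Mgst3 (0.32, adjusted p = 0.125) missed it, against -0.47 and 0.39 with all libraries, while Alox5ap (0.0357) and Mgst2 (0.0199) passed.

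Among exporters and receptors, Abcc1, which exports leukotriene C4, averaged 6.23 ± 0.969 CPM in C3H and 6.95 ± 0.957 in B6 (adjusted p = 0.505, edgeR). Cysltr2, a receptor that binds the C4 and D4 forms, averaged 1.52 ± 0.268 CPM in C3H and 2.71 ± 0.603 in B6 and was 1.77-fold lower in C3H (adjusted p = 0.0102, edgeR). Its log2 fold change was -0.83, and without C3H 3 and C3H 5 it was -0.84 (adjusted p = 0.0506, edgeR). Cysltr1, the receptor for which the D4 form is the preferred ligand, averaged 2.87 ± 0.730 CPM in C3H and 3.08 ± 0.424 in B6 (adjusted p = 0.768, edgeR). Gpr17, a related receptor gene, had 20.5, 27.3, 28.4 and 38.1 CPM in C3H 1, 3, 4 and 5, against 9.24, 8.01, 10.6 and 8.40 CPM in B6 2, 3, 4 and 5, and rose 3.15-fold (adjusted p = 3.68e-05, edgeR). Oxgr1, a receptor reported for the E4 form, had 1 count over the C3H libraries and 0 over the B6 libraries.

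The genes most like each member were sought among 13003 named genes with a mean of at least 1 CPM, by the root mean square difference of log2 CPM, centred per gene, over the 8 libraries. The strain difference enters that distance. Genes with a strain difference like the member's were therefore favoured, and their tests are no separate evidence about it. Nearest to Ggt1 were Sult2b1 (0.080), Gsdmd (0.087) and Fam234a (0.091), against a median of 0.35 over all genes compared with it. Their mean levels were 191 ± 44.7 CPM in C3H and 220.0 ± 28.1 in B6 for Sult2b1, and 352 ± 76.3 in C3H and 420.1 ± 48.4 in B6 for Gsdmd, and neither passed the test (adjusted p = 0.412 for Sult2b1 and 0.282 for Gsdmd, edgeR). Nearest to Ggt5 were Arap3 (0.073), Fkbp14 (0.077) and Rgn (0.081), against a median of 0.332; Arap3 rose (log2 fold change 0.53, adjusted p = 0.00281, edgeR), while Fkbp14 (0.43, adjusted p = 0.0702, edgeR) and Rgn (0.40, adjusted p = 0.0624, edgeR) did not pass. Nearest to Ggt6 were Spout1 (0.031), Nagk (0.039) and Stx4a (0.040), with a median of 0.219. Nearest to Ggct were Zfp7 (0.088), Rbm38 (0.093) and Lmna (0.106), with a median of 0.316. For Ggt7 the nearest, Chchd2-ps, Tpbgl and Mrnip, differed by 0.249 to 0.278 against a median of 0.451. With 23 to 52 counts of Ggt7 per library, counting noise adds to these differences. Whether a gene follows Ggt7 closely cannot be told here.

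In chromosome order, 16 protein-coding genes other than the members lie within 2 places of a member, and 14 of them were tested. Of these, 1 rose and 1 fell, both beside Ggt7, against 11.3% of all tested genes that rose and 10.1% that fell. Acss2, an acetyl-CoA synthetase gene that overlaps the start of Ggt7, averaged 49.0 CPM in C3H and 31.9 in B6 and rose 1.54-fold (log2 fold change 0.62, adjusted p = 0.000369, edgeR quasi-likelihood test). Trp53inp2 averaged 91.7 CPM in C3H and 109 in B6 and was 1.19-fold lower in C3H (adjusted p = 0.0336, edgeR quasi-likelihood test); it kept the call in 2 of the 8 fits that left out 1 library, those without C3H 1 and without B6 2, and the adjusted p reached 0.119 without B6 3; without C3H 3 and C3H 5 the log2 fold change was -0.23 (adjusted p = 0.187), against -0.26 with them. Around the Ggt1 and Ggt5 pair, Snrpd3 (log2 fold change 0.04), Lrrc75b (-0.12), Susd2 (-0.13) and Cabin1 (0.03) did not pass (adjusted p = 0.684 to 0.861, edgeR). Gss lies 2 places from Ggt7. Beside Ggt6, Tekt1 had 2 counts over C3H and 1 over B6 and was not tested, and beside Ggct the same held for Crhr2, with 26 counts over C3H and 19 over B6.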

How the data were processed

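Illumina Stranded mRNA libraries, all in batch 1, were made from 200 ng of RNA isolated with the Qiagen miRNeasy method (RNA integrity number above 7), per the labels. Per the submitters' processing notes, STAR 2.7.9a, HTSeq 2.0.2 and the build GRCm39 were used. The authors deposited raw counts per gene for 56941 Ensembl identifiers in 8 libraries; neither the annotation release nor the strand setting is given in the sources used here. GRCm39 derives from C57BL/6J, so C3H reads with strain differences may align less well; that was not tested. Symbols (52000 identifiers matched), lengths, gene order and transcript sequences came from GENCODE M21 on GRCm38. Of 2 identifiers named Dpep2, the one with more counts was used. In the enterocyte list, 1 marker gene is not reported here and was left out of the sums.

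Counts were fitted over the whole table in edgeR 4.0.16 (R 4.3.3) with TMM scaling (factors 0.915 to 1.13), filterByExpr at a minimum count of 10, the quasi-likelihood F test and Benjamini-Hochberg adjustment over 18025 genes, with a threshold of 0.05. CPM values use TMM-scaled totals, folds are C3H over B6, and each standard error is the size of the log2 fold change over the square root of F. Likeness used a prior count of 2. Coding sequences were translated and aligned pairwise as proteins, and identity was then counted over the bases of the aligned codons. Separately, the fits of the counts were tried on simulated counts. The members, the lists and the naming rule (members, changed or untested list genes, the 2 most abundant unchanged ones, 3 most like genes and 2 neighbours per side) were chosen with earlier results of these data known; the other list genes were named with values in view. The alternatives tried were other scalings, filters and thresholds, DESeq2 1.42.0, limma-voom (limma 3.58.1), robust dispersion, left-out libraries and a replicate block. Counting coefficients cover counting error only, since PCR copies were not separated by molecular identifiers.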

Additional observations from a re-analysis of the deposited data

Results flagged for a closer look

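Of 58 groups of 4 libraries checked for a single library far from the other 3, 3 were flagged, where chance flags about 1 in 20. Ggct had 3.93 CPM in C3H 1 and 2.66 to 2.82 CPM in the other C3H libraries. Ltc4s had 7.01 CPM in C3H 3 and 6.14 to 6.27 CPM in the other C3H libraries. Mgst3 had 319 CPM in B6 5 and 272 to 276 CPM in the other B6 libraries.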

How the results depend on the processing

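Under other scalings, filters and tests on all 8 libraries, Ggt5 remained called at 0.05 (log2 fold change 0.45 to 0.55), and Ggt1, Ggt6, Ggt7 and Ggct remained uncalled. Leaving out 1 library gave log2 fold changes of -0.48 to -0.18 for Ggt1, 0.39 to 0.56 for Ggt5, -0.13 to -0.01 for Ggt6, -0.18 to 0.31 for Ggt7 and -0.49 to -0.24 for Ggct, 0 to 2 members called, 3099 to 3682 genes called in all, 1 in glutathione synthesis each time, 2 to 3 in breakdown and 4 to 5 in the leukotriene list. Without C3H 3 and C3H 5, Ggt5 gave 0.37 (adjusted p = 0.157, edgeR), with 0 members, 2496 genes in all, 1 breakdown gene and 3 leukotriene genes called; without B6 2 and B6 3 as well, Ggt5 gave 0.26, Ggt7 -0.02, Gclm -0.16 and Abcc1 0.02, with 0 members, 1675 genes in all, 0 breakdown genes and 2 leukotriene genes called. At a threshold of 0.01, Ggt5 (0.49) was not called, so that 0 members, 2326 genes in all and 2 leukotriene genes passed. Ggt7 reversed to -0.03 in limma-voom, Ltc4s to 0.02 without B6 5 (-0.42 to 0.02 over the libraries left out), and Cysltr1 to 0.05 without C3H 5 (-0.23 to 0.05) and 0.07 without C3H 3 and C3H 5. Over all settings, 63 values lost a call and 5 gained one, with the same direction, among the followed genes other than the members. Those were the tested glutathione and leukotriene genes, Acss2, Trp53inp2, Arap3, Slc15a1, Kdr, Tek, Csf1r and C1qa. The other named genes are not in this tally. Library totals called 4 breakdown genes (1 rose, 3 fell) and a mean of at least 100 counts 1; of all calls 61.0% were higher in C3H with library totals, against 52.9% with TMM. The mean filter gives no value for Ggt7, Slc7a11, Chac1 or Cysltr2. The causes of these shifts were not tested.

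Replicate numbers 3, 4 and 5 occur in both strains, but same-numbered libraries did not deviate together (r = 0.006, 0.18 and -0.052), and of them 4 alone correlated best with its own number. Over these 6 libraries Ggt5 gave 0.45 with the replicate block (adjusted p = 0.116, edgeR) and 0.46 without it (0.0805), and Ggct -0.56 with the block (0.0472) and -0.56 without it (0.0222); 2919 genes were called with the block and 3212 without it. Depth left Dpep2, Dpep3 and Oxgr1 untested.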
